A study of Mus musculus with 15 samples.

Results

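The comparison asked how gene expression in chronically inflamed colon mucosa differed between mice given 5-aminosalicylic acid (5-ASA, mesalamine) and untreated mice. It covered 4 of the 8 animals of the study and 7 of its 15 arrays, chosen by the words treated-inflamed and untreated-inflamed in the sample titles. The untreated inflamed group had 2 animals with 4 arrays, and the treated inflamed group had 2 animals with 3 arrays. All animals were female Swiss Webster mice, an outbred stock, that entered the study at 7 weeks of age and were killed at 18 weeks. All, the untreated animals included, were injected with the carcinogen azoxymethane at 7.4 mg/kg. From 9 weeks of age they drank 4% dextran sodium sulphate, which damages the colon epithelium, in 3 cycles. A cycle is given as 7 days of it and 21 days of water. Counted from 9 weeks, 3 full cycles would run past 18 weeks, so the time from the last exposure to death is not known here. The treated animals received 5-ASA at 75 mg/kg for the rest of the study and the untreated animals vehicle. No group without colitis enters the comparison, so each value sets 1 inflamed state against another. Inflamed mucosa was cut from 5 µm frozen sections by laser capture, and its RNA went through 2 rounds of amplification before labelling. It was hybridised beside a mouse universal reference RNA, and every level given here is the log2 of sample over that reference, 1 value for each animal. The other 4 animals gave polypoid tissue and enter as a comparison, in the estimate of the spread, in the fit of the dye effect and in the choice of the genes tested.

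5-ASA is the standard drug for mild ulcerative colitis and acts on the colon lining from the gut lumen. It is known as an inhibitor of prostaglandin and leukotriene synthesis, as a brake on the transcription factor NF-kB, as a ligand of the nuclear receptor PPAR-gamma in colon epithelium and as a scavenger of oxygen radicals, and epithelial cells inactivate it by N-acetylation. Inflamed mucosa is a mix of surface and crypt epithelium, lamina propria immune cells, fibroblasts, vessels and, where the cut reaches deeper, smooth muscle of the muscularis mucosae. In such a mix, fewer cells of a type and less RNA per cell cannot be told apart.

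The captured tissue carried the markers of colon mucosa. The epithelial genes Vil1 and Slc26a3, a brush border protein and a chloride exchanger, stood at 5.03 to 5.39 and at 4.40 to 5.63 above the reference over the 4 animals, and both were well above background on all 7 arrays. The goblet cell mucin Muc2 lay at 3.39 to 4.63 and the plasma cell joining chain Jchain at 4.85 to 5.81. The neutrophil receptor Cxcr2 was well above background on 2 of 4 untreated and 0 of 3 treated arrays, and the neutrophil alarmin S100a8 on 4 of 4 untreated and 2 of 3 treated arrays. Over the 7 arrays, 57.3% to 88.4% of probes were well above background in the sample channel, and the lowest share was that of treated inflamed replicate 2, which had a single array. The arrays fell into scan sessions, and both groups were present only in session 1, which held replicate 1 of each. Untreated replicate 2 was scanned in session 3 and treated replicate 2 in session 4.

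No gene passed the test between treated and untreated inflamed mucosa. With limma at a Benjamini-Hochberg adjusted p under 0.05, 0 of 21301 genes (0%) were called, and the smallest adjusted p was 0.975. At an unadjusted p under 0.05, 525 genes (2.46%) lay higher and 409 (1.92%) lower in treated mucosa. Together these were 934 genes (4.38%), below the share of 0.05 that this level gives where nothing differs. Both treated animals lay above both untreated animals for 3176 genes (14.9%) and below both for 3096 (14.5%), and these shares are the background against which each gene list is read here. With 2 animals against 2, an exact permutation test of a single value cannot go below p = 0.333 (two-sided). When all 15 arrays were fitted with the animal as a random block instead of 1 value per animal, 2 genes passed, Xdh (limma adjusted p = 0.0186) and Cdh1 (0.0275). In that fit the observations are arrays, dye swaps of the same animal included. A single correlation of 0.88 between the arrays of an animal serves all genes. The count at an unadjusted p under 0.05 was 3300 without untreated replicate 1, against 934 with all animals. The values that follow describe these 4 animals.

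**Figure D1:**
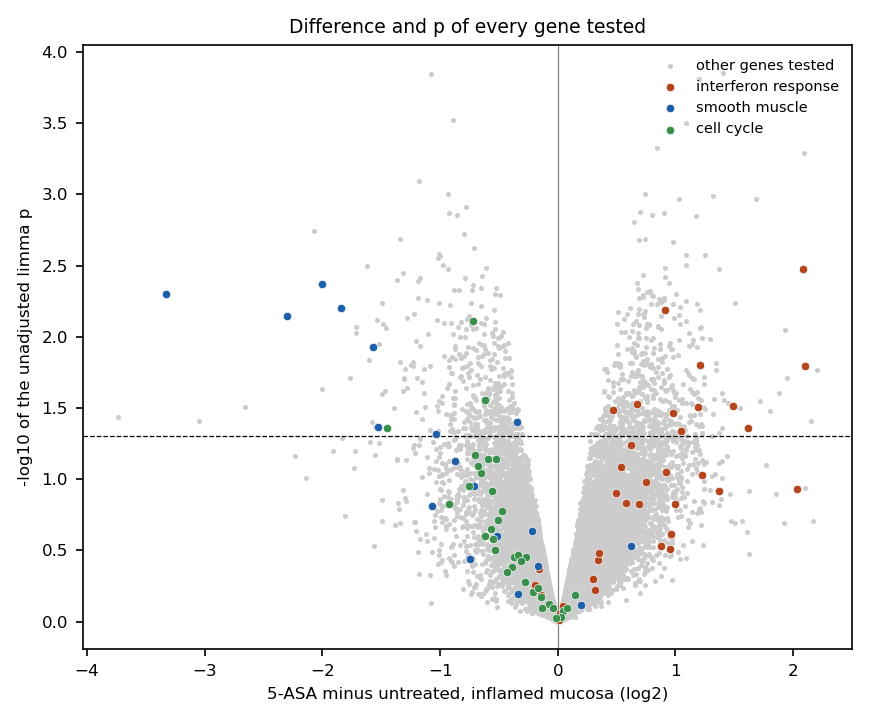
Each point is 1 gene, with the log2 difference of 5-ASA minus untreated inflamed mucosa on the x axis and −log10 of the unadjusted limma p on the y axis (dashed line at the 0.05 level). Interferon response genes (35) lie mostly right of 0, smooth muscle genes (18) and cell cycle genes (35) mostly left of it; no gene passed the adjusted threshold of 0.05.

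The 15201 named genes detected on every array of at least 1 inflamed group gave 30 examples, the 15 higher and the 15 lower genes with the smallest p among those whose groups did not overlap. Cdh1, which encodes E-cadherin, the adhesion protein of the epithelial adherens junction, stood at 2.28 and 2.07 in the untreated and 3.62 and 3.54 in the 5-ASA animals. The 4 animals fell into tight pairs, which the choice by smallest p favours. The difference was 1.40 ± 0.17 (SE) on the log2 scale, a fold of 2.65 (limma adjusted p = 0.975). Xdh, xanthine dehydrogenase, an enzyme of purine breakdown that forms urate, showed the largest difference among the 15 higher genes, 2.09 ± 0.31, with levels of 0.19 and -0.12 in the untreated and 2.38 and 1.87 in the 5-ASA animals. Gpnmb, a glycoprotein of phagocytes rich in lysosomes, stood at 2.19 and 1.44 in the untreated and 3.57 and 3.44 in the 5-ASA animals. Axl, a receptor tyrosine kinase by which macrophages take up dying cells, differed by 0.80 ± 0.15, and Glrx, the thiol reductase glutaredoxin, by 0.90 ± 0.16. Efnb2, the ligand ephrin-B2, differed by 1.25 ± 0.26 and Chst1, a sulfotransferase of keratan sulphate, by 0.98 ± 0.19.

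The retinoblastoma family member Rbl2, which holds cells in quiescence, lay at -0.29 and -0.31 in the untreated and 0.96 and 0.83 in the 5-ASA animals, a difference of 1.20 ± 0.15. Pank2, a kinase that starts coenzyme A synthesis, differed by 0.85 ± 0.13, by 2 of its 2 probes. Ermp1, Fhdc1, Rundc3b, Btf3, Fbxl5 and Lrrc42, with the already named Chst1, had differences of 0.65 to 1.17. For Fbxl5, 2 of its 3 probes were higher in treated mucosa.

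Among the 15 lower genes, Pla2g2d, a secreted phospholipase A2 of lymphoid tissue dendritic cells, showed the largest difference, -2.07 ± 0.40. Its levels were 4.18 and 3.28 in the untreated and 1.87 and 1.45 in the 5-ASA animals. Pgm5, a protein of smooth muscle adhesion plaques, stood at 3.67 and 3.15 in the untreated and 1.83 and 1.75 in the 5-ASA animals, with 1 of its 2 probes pointing the other way. Lims2, a focal adhesion adaptor, differed by -1.34 ± 0.26. Pgls, the second enzyme of the pentose phosphate pathway, had the smallest p of these genes and lay at -0.33 and -0.39 in the untreated and -1.40 and -1.48 in the 5-ASA animals. Its difference was -1.08 ± 0.13, again with 1 of 2 probes in the opposite direction. The cytosolic chaperone Hsp90aa1 lay at -0.56 and -0.53 in the untreated and -1.60 and -1.51 in the 5-ASA animals, and the kinase Akt1, which relays growth factor signals, at 0.83 and 1.35 in the untreated and 0.25 and -0.017 in the 5-ASA animals. Nfil3, a repressor that links the circadian clock to immune cell development, differed by -0.85 ± 0.15 and Dad1, a subunit of the enzyme that N-glycosylates proteins, by -0.92 ± 0.17. The remaining 7 genes, Pop5, Psd, Lockd, Ccdc85b, Hps4, Plekho1 and Hdac10, had differences of -1.18 to -0.61.

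**Figure D2:**
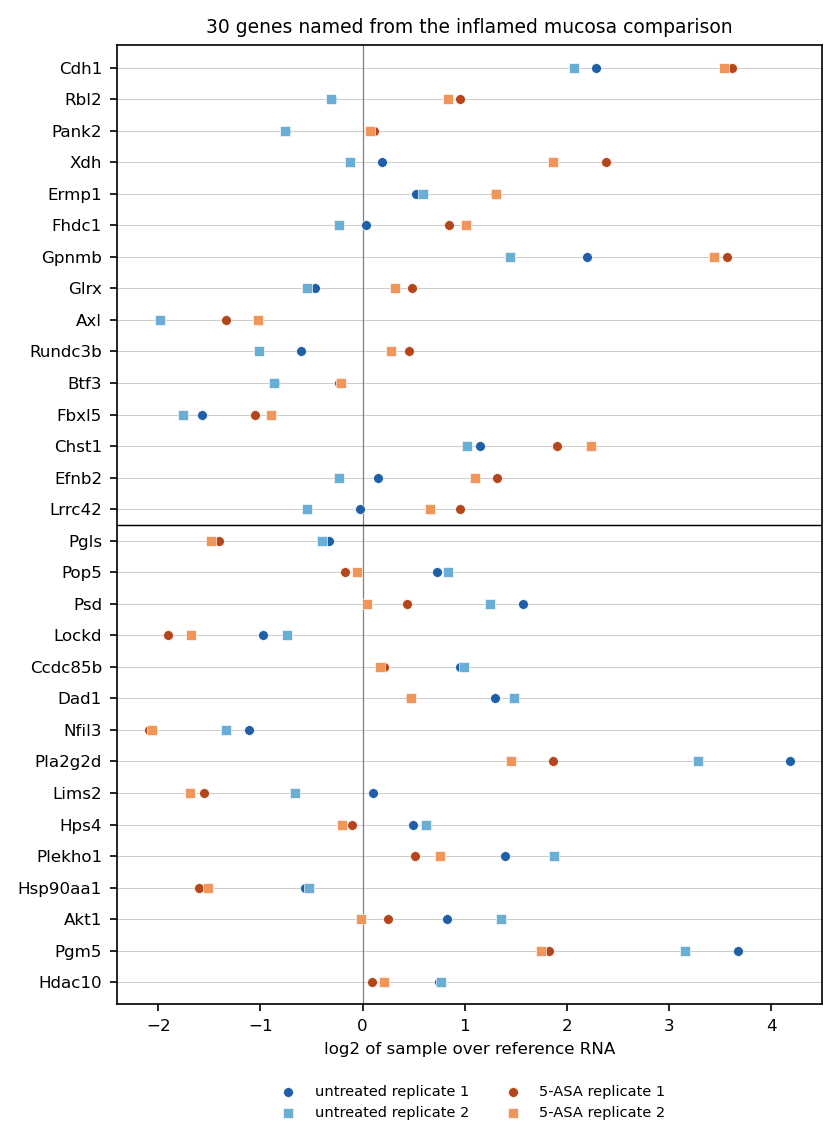
Log2 of sample over reference RNA for each of the 4 inflamed animals (x axis, 1 point per animal) for 15 genes higher and 15 lower in 5-ASA animals, in the order of their p within each set. The genes were chosen because the groups do not overlap, which is therefore no finding; Cdh1 and Ermp1 show close pairs, Gpnmb and Pla2g2d a wider spread between the untreated animals.

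Of the 36 gene lists examined, the interferon response had the largest share of genes above and the highest median difference. The lists were chosen with earlier results of these data known, so rankings among them, here and below, are descriptions and not tests. Type I interferons bind a shared receptor and, through transcription factors of the STAT and IRF families, switch on antiviral genes whose promoters carry the interferon-stimulated response element; the IFIT proteins bind viral RNA, the OAS proteins sense double-stranded RNA, and ISG15 is a ubiquitin-like tag. In treated mucosa, 24 of 35 measured members (68.6%) had both 5-ASA animals above both untreated animals and 0 had both below, against 14.9% and 14.5% of all genes. At an unadjusted limma p under 0.05, 11 members lay higher and 0 lower, against 2.46% and 1.92% of all genes. Of the members, 0 passed the adjusted threshold. The median difference of the list was 0.75 on the log2 scale, against -0.015 over all genes.

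The effectors differed most. Ifit2 lay at 0.77 and -0.0049 in the untreated and 2.68 and 2.25 in the 5-ASA animals, a difference of 2.08 ± 0.45 (limma adjusted p = 0.975), by 2 of 2 probes. Ifit1 stood at 0.49 and 1.13 in the untreated and 3.78 and 2.05 in the 5-ASA animals and Ifit3 at 1.86 and -0.76 in the untreated and 3.28 and 1.88 in the 5-ASA animals. In Ifit3, treated replicate 2 stood level with untreated replicate 1. Rsad2, which encodes the antiviral protein viperin, lay at 1.22 and 1.73 in the untreated and 3.97 and 2.20 in the 5-ASA animals. In these genes, and in Isg15 (0.35 and -0.015 against 1.82 and 0.90) and Ifi44 (0.97 and 0.091 against 2.63 and 1.41), treated replicate 1 was the highest of the 4 animals. Among the OAS family, Oasl1 lay at 1.31 and 1.31 in the untreated and 2.51 and 1.93 in the 5-ASA animals, a difference of 0.91 ± 0.23. Oasl2 was high in every animal, at 4.31 and 4.47 in the untreated and 6.17 and 4.61 in the 5-ASA animals, with only treated replicate 1 apart, and Oas3 (-0.096 and 0.86 against 0.13 and 0.34) overlapped. Of the cytosolic RNA sensors, Dhx58 lay at 0.30 and 1.22 in the untreated and 2.24 and 1.69 in the 5-ASA animals, while Ifih1 (4.37 and 4.56 against 4.81 and 4.15) and Ddx58 (0.66 and 0.26 against 1.01 and 0.59) overlapped.

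The transcription factors of the pathway showed smaller differences. Stat2 differed by 0.49 ± 0.28, Irf9 by 0.63 ± 0.27 and Irf7 by 0.75 ± 0.39, each with both treated animals above both untreated. Irf1 stood at 2.39 and 2.77 in the untreated and 3.31 and 3.01 in the 5-ASA animals. Irf8, a factor of myeloid cells, overlapped (3.53 and 3.15 against 3.25 and 3.10), as did the nucleic acid sensor Zbp1 (3.09 and 3.38 against 3.25 and 2.84). The genes of type I interferons themselves were not in the list, and Ifng, the type II interferon, stood near the reference in every animal (0.042 and 0.14 against 0.22 and 0.15) and was well above background on 4 of 4 untreated and 2 of 3 treated arrays. Ifit2, Oasl1 and Dhx58 were the members with the smallest p; the others named here were chosen after their values were seen, and so were the further genes given as overlapping examples of the cell type and junction lists.

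The size of the interferon difference moved with treated replicate 1. Without that animal the list's median was 0.37, and without treated replicate 2 it was 1.14. Without untreated replicate 1 or 2 it was 0.86 or 0.60. Within scan session 1, treated minus untreated replicate 1 had a median of 0.92, with 1 animal against 1 and no test. Relative to each gene's mean over the 4 animals, the median of the list stood at -0.17 and -0.45 in the untreated and 0.68 and 0.031 in the 5-ASA animals. On the same scale macrophage and dendritic cell genes stood at -0.003 and -0.20 in the untreated and 0.17 and -0.054 in the 5-ASA animals. Of these genes, 11 of 25 lay above and 0 below, against 14.9% and 14.5% of all genes. Their part in the interferon difference was not tested.

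**Figure D3:**
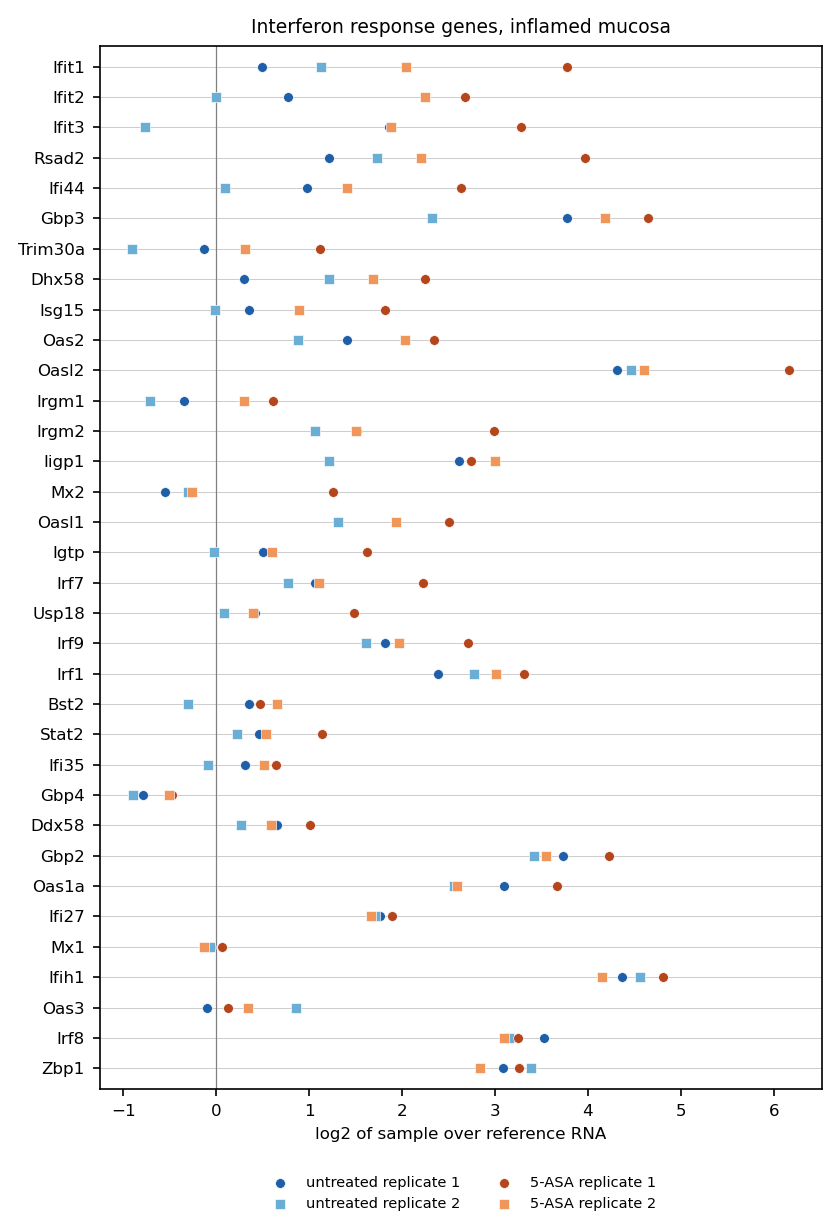
Log2 of sample over reference RNA (x axis) for the interferon response genes in the 4 inflamed animals, all but 1 of the 35 measured, 1 point per animal, ordered by the difference of the group means. Treated replicate 1 is the rightmost point for Ifit1, Ifit3, Rsad2 and Oasl2, and the groups overlap in 11 genes, among them Ifih1, Oas3 and Zbp1.

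Because these genes are known to share a promoter element, the 250 bases upstream of the start of 3 effectors are shown, as RefSeq gives them for build GRCm38.p6, 5′ to 3′ on the strand of the gene. Capitals mark each match to GAAA, any 2 bases and GAAA again, the core of the interferon-stimulated response element, on either strand, with overlapping matches counted.
Ifit1, GRCm38.p6 chr19:34640639-34640888, plus strand: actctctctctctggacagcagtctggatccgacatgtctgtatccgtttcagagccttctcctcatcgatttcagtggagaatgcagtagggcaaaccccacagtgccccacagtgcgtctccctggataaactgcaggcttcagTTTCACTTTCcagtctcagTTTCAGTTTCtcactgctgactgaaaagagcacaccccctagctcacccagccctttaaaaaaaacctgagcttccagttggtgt
Ifit3, GRCm38.p6 chr19:34583279-34583528, plus strand: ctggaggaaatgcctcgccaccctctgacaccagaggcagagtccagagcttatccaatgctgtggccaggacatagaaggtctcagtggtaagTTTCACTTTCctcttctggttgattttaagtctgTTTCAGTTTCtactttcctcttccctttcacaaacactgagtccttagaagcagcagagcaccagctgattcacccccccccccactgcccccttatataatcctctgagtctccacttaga
Isg15, GRCm38.p6 chr4:156200819-156201068, minus strand: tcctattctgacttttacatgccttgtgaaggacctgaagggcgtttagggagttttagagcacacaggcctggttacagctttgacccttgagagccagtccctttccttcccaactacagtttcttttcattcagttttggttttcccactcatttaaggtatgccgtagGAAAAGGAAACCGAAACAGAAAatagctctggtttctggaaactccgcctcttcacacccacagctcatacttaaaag
Ifit1 and Ifit3 each hold 2 matches and Isg15 holds 3 that overlap. RefSeq promoter windows of 300 bases, of which 50 lie after the start, were at hand for 25 of the 35 measured members, and 16 of them (64%) held the motif, against 3.85% of 13367 genes tested that matched a window and 3.44% of all 32851 windows. The motif was found in 10 of 18 members whose treated animals lay above and in 6 of 7 whose groups overlapped. Ifit2 and Oasl1 held no match in their windows.

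The genes of the pathways through which 5-ASA is known to act showed no common direction for prostanoids, NF-kB or cytokines. Of 30 prostanoid and leukotriene genes, 5 lay above and 3 below without overlap (14.9% and 14.5% of all genes), 0 passed, and 0 had an unadjusted p under 0.05. The cyclooxygenase Ptgs1 lay at -0.70 and -0.58 in the untreated and -0.62 and -0.24 in the 5-ASA animals, and the inducible Ptgs2 at -2.12 and -2.90 in the untreated and -1.37 and -1.69 in the 5-ASA animals. The Ptgs2 groups did not overlap, but the difference of 0.97 had an SE of 1.38. The polypoid animals, which share the estimate of the spread, stood at 0.88 and -0.87 without and 2.45 and -1.98 with 5-ASA. The prostaglandin E synthase Ptges overlapped (-0.22 and 0.54 against -0.11 and -0.44), and so did Hpgd (4.31 and 1.81 against 4.24 and 3.20), which breaks prostaglandins down. Of the lipoxygenase arm, Alox5 stood at 0.18 and 0.28 in the untreated and 0.41 and 0.40 in the 5-ASA animals and its partner Alox5ap at 0.47 and 0.21 in the untreated and 0.42 and 0.23 in the 5-ASA animals. Alox12 (0.71 and 0.40 against 0.76 and 1.15), Tbxas1 (2.24 and 1.07 against 2.85 and 2.08) and Pla2g5 (2.80 and 3.36 against 2.15 and 2.29) had the smallest p of the list. Tbxas1 is the thromboxane synthase, with 2 of its 3 probes higher in treated mucosa, and Pla2g5 a secreted phospholipase.

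Of 37 NF-kB pathway genes, 8 lay above (21.6%) and 4 below (10.8%), against 14.9% and 14.5% of all genes, with a median of 0.015. At an unadjusted limma p under 0.05, 4 lay higher and 1 lower, against 2.46% and 1.92% of all genes. The subunits Rela (0.27 and 0.25 against 0.36 and 0.092) and Nfkb1 (-0.032 and 0.39 against 0.30 and -0.12) overlapped. The inhibitors and inducible targets were not in 1 direction: Nfkbiz, an inducible coregulator, lay at 1.36 and 0.32 in the untreated and 2.42 and 2.14 in the 5-ASA animals and Nfkbia at 1.53 and 1.20 in the untreated and 1.70 and 2.14 in the 5-ASA animals, whereas Tnfaip3 overlapped (1.85 and 1.29 against 2.23 and 1.54). Traf1, an adaptor induced by TNF receptors, lay at 2.58 and 2.31 in the untreated and 1.59 and 0.85 in the 5-ASA animals, a difference of -1.23 ± 0.37. The kinases Chuk (1.21 ± 0.45) and Ripk1 (0.89 ± 0.33) and the bacterial lipoprotein receptor Tlr2 (0.68 ± 0.26) had positive differences, and the lipopolysaccharide receptor Tlr4 a negative one (-0.77 ± 0.34).

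Of 41 cytokine and chemokine genes, 6 lay above and 6 below (14.6% each, against 14.9% and 14.5% of all genes). None had an unadjusted p under 0.05 in limma, and the median was 0.048. Il1b stood at 3.04 and 2.89 in the untreated and 2.18 and 3.17 in the 5-ASA animals, with the highest and the lowest value both in treated animals. Tnf (0.12 and 0.32 against 0.47 and 0.34), Il6 (-0.50 and -0.79 against -0.36 and -0.82) and Il10 (-1.11 and -0.69 against -1.12 and -1.0) stayed within 0.5 log2 units between group means. Il17a and Il22, cytokines of type 17 lymphocytes, were well above background on 0 of 7 inflamed arrays. Il18, an epithelial cytokine, lay at 4.44 and 2.94 in the untreated and 5.02 and 4.85 in the 5-ASA animals, and the neutrophil chemokine Cxcl1 at -1.32 and -1.72 in the untreated and -0.34 and -0.63 in the 5-ASA animals. Cxcl13, which draws B cells into follicles, lay at 6.0 and 3.30 in the untreated and 2.43 and 3.05 in the 5-ASA animals, a difference of -1.91 ± 0.84 in which untreated replicate 1 stood far above the other 3 animals. Ccl25, a chemokine that draws lymphocytes to the gut, lay at -0.57 and 0.038 in the untreated and -1.16 and -0.78 in the 5-ASA animals, with 1 of its 2 probes in the opposite direction.

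PPAR targets, many of them enzymes of fatty acid oxidation, lay above more often than below. Of 33 measured genes, 10 lay above (30.3% against 14.9%) and 3 below (9.09% against 14.5%). At an unadjusted limma p under 0.05, 6 lay higher and 1 lower, against 2.46% and 1.92% of all genes. Pparg itself, the receptor that 5-ASA is known to bind, lay at 2.81 and 2.88 in the untreated and 3.13 and 3.26 in the 5-ASA animals, a difference of 0.35 ± 0.25. Acadl, a mitochondrial acyl-CoA dehydrogenase, had the smallest p and lay at 0.062 and -0.12 in the untreated and 0.71 and 1.30 in the 5-ASA animals. Cpt1a, which admits fatty acids to mitochondria, lay at 0.40 and 0.20 in the untreated and 0.71 and 0.69 in the 5-ASA animals. The peroxisomal genes Ehhadh (0.87 ± 0.35) and Acaa1b (0.56 ± 0.20) and the transcriptional regulator Tsc22d1 (0.75 ± 0.24) had positive differences, and the mitochondrial thiolase Acaa2 a negative one (-0.33 ± 0.13).

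The same list also held genes of fat cells, which varied widely between the animals of a group. Fabp4, a lipid carrier of adipocytes and macrophages, stood at 3.38 and 0.44 in the untreated and 5.16 and 1.91 in the 5-ASA animals, and Cidec, a lipid droplet protein of adipocytes, at 2.85 and 0.066 in the untreated and 4.08 and -0.0044 in the 5-ASA animals. In both, the replicate 1 animals were high and the replicate 2 animals low in either group. The list's median was 0.35, and it was -0.031 without treated replicate 1 and 0.16 without untreated replicate 2, against 0.31 within scan session 1.

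Of 40 drug metabolism and transport genes, 11 lay above (27.5% against 14.9%) and 2 below (5% against 14.5%). At an unadjusted limma p under 0.05, 5 lay higher, against 2.46% of all genes. The efflux pump Abcb1a (P-glycoprotein) lay at 2.20 and 1.11 in the untreated and 3.75 and 3.32 in the 5-ASA animals, a difference of 1.88 ± 0.64. The carnitine carrier Slc22a5 differed by 0.81 ± 0.23, the peptide carrier Slc15a1 by 1.03 ± 0.40 and Por, which passes electrons to cytochromes P450, by 0.87 ± 0.24. Cyp1a1, a target of the aryl hydrocarbon receptor, lay at -0.49 and -0.52 in the untreated and 0.50 and 0.25 in the 5-ASA animals and was well above background on 1 of 4 untreated and 3 of 3 treated arrays. Of the N-acetyltransferases, which acetylate 5-ASA, Nat1 lay at -0.59 and -0.50 in the untreated and -0.77 and -0.63 in the 5-ASA animals and Nat2 overlapped at 1.35 and 0.21 in the untreated and 1.75 and 0.89 in the 5-ASA animals. The list's median was 0.26, and 0.035 without untreated replicate 2, 0.46 without untreated replicate 1, 0.15 without treated replicate 1 and 0.48 without treated replicate 2.

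NRF2 antioxidant genes were split, with 8 of 34 above and 8 below (23.5% each, against 14.9% and 14.5% of all genes). Gpx2, the glutathione peroxidase of gut epithelium, lay at 5.09 and 5.11 in the untreated and 4.41 and 3.92 in the 5-ASA animals, a difference of -0.93 ± 0.20. Cbr3, a carbonyl reductase, lay at 1.48 and 2.63 in the untreated and 1.02 and 1.05 in the 5-ASA animals, and Srxn1, which reactivates peroxiredoxins, at 0.21 and 0.055 in the untreated and 0.93 and 0.66 in the 5-ASA animals, by 3 of 3 probes. Nqo1 (-1.56 and -0.94 against -1.0 and -1.02), the enzyme most used as a marker of NRF2 activity, overlapped, and Hmox1, which degrades haem, lay at -0.42 and -0.50 in the untreated and -0.38 and -0.026 in the 5-ASA animals. The transferases Gsta1 (1.1 ± 0.47) and Gsta2 (1.14 ± 0.51) had positive differences and Gsta3 (-0.71 ± 0.52) and Gstp1 (-0.67 ± 0.37) negative ones; these are close relatives whose probes may share signal.

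Smooth muscle genes had the largest share below and the lowest median of the 36 lists. Of 18 measured genes, 11 had both treated animals below both untreated animals (61.1% against 14.5%) and 0 had both above. At an unadjusted limma p under 0.05, 8 lay lower, against 1.92% of all genes. Synm, an intermediate filament protein, lay at 5.84 and 3.34 in the untreated and 1.70 and 0.81 in the 5-ASA animals, a difference of -3.33 ± 0.78. Tagln (transgelin) lay at 4.34 and 3.23 in the untreated and 1.41 and 2.15 in the 5-ASA animals. Des (desmin) lay at 2.83 and 1.31 in the untreated and 0.21 and 0.25 in the 5-ASA animals. It was well above background on 4 of 4 untreated and 2 of 3 treated arrays. Cnn1 (5.88 and 4.24 against 2.79 and 2.74) and Acta2 (1.81 and 1.42 against -0.36 and 0.46), chosen after their values were seen, were ordered alike, while Myh11 (3.65 and 1.09 against 1.51 and 1.73), the smooth muscle myosin, overlapped, with only untreated replicate 1 high. The list's median was -0.81, with -0.40 without untreated replicate 1, -1.56 within scan session 1 and -1.29 without untreated replicate 2. Relative to each gene's mean over the 4 animals, the median of the list stood at 0.96 and 0.16 in the untreated and -0.73 and -0.22 in the 5-ASA animals. Pgm5 and Lims2 lay lower in the same animals, and the part of smooth muscle in their differences was not tested. The enteric nerve gene Nos1 lay beside them at 0.45 and -0.83 in the untreated and -1.67 and -1.64 in the 5-ASA animals.

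B cell genes set untreated replicate 1 apart. Ms4a1 (CD20) lay at 5.89 and 2.23 in the untreated and 0.88 and -0.25 in the 5-ASA animals, a difference of -3.74 ± 1.40, and was well above background on 4 of 4 untreated and 2 of 3 treated arrays. Ighm lay at 3.57 and 1.99 in the untreated and 1.76 and 0.65 in the 5-ASA animals by 4 of 4 probes. Fcer2a (CD23), a marker of follicular B cells, lay at 3.18 and 0.94 in the untreated and 0.26 and 0.18 in the 5-ASA animals. It was well above background on 4 of 4 untreated and 2 of 3 treated arrays. Glycam1, a mucin-like ligand for L-selectin on lymphoid vessels that was chosen after its values were seen, lay at 4.69 and 2.15 in the untreated and 0.056 and 0.69 in the 5-ASA animals and was well above background on 4 of 4 untreated and 0 of 3 treated arrays. Its difference of -3.05 ± 1.16 was -1.76 without untreated replicate 1, and the treated values are not well above background. The plasma cell gene Jchain overlapped (5.81 and 4.85 against 5.03 and 5.07). Prdm1, Sdc1 and Xbp1, also chosen after their values were seen, had both treated animals above, by 1.15, 0.70 and 0.51. Whether these 3 values come from plasma cells was not tested. For the whole list, 3 of 17 lay above (17.6% against 14.9% of all genes) and 5 below (29.4% against 14.5%). Its median of -0.083 became 0.28 without untreated replicate 1, the opposite sign.

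Epithelial markers as a whole differed little in their median. Over all genes, 14.9% lay above and 14.5% below. Of 19 epithelial markers, 5 lay above and 0 below, with a median of 0.064; Epcam overlapped at 4.01 and 2.52 in the untreated and 4.21 and 3.98 in the 5-ASA animals, and Vil1 at 5.34 and 5.03 in the untreated and 5.39 and 5.03 in the 5-ASA animals. Cdh1, described above, and the epithelial transcription factor Elf3 (0.76 ± 0.18) were the exceptions at an unadjusted p under 0.05. Cdh17, the intestinal cadherin, differed by 0.65 ± 0.31, and with the scanner software's processed signals the difference was -0.14, the opposite sign. Among 25 tight and adherens junction genes, 8 lay above (32% against 14.9%) and 0 below. At an unadjusted limma p under 0.05, 6 lay higher, against 2.46% of all genes. The desmosomal cadherin Dsg2 lay at 2.70 and 2.37 in the untreated and 3.52 and 3.31 in the 5-ASA animals by 4 of 4 probes, and the scaffold Tjp1 (ZO-1) at 0.0047 and -0.86 in the untreated and 0.80 and 0.63 in the 5-ASA animals by 2 of 2. The claudins Cldn3 (4.44 and 4.68 against 4.67 and 4.43), Cldn7 (5.51 and 4.92 against 5.46 and 4.59) and Cldn8 (7.44 and 6.84 against 7.50 and 6.99) overlapped. The junction list's median of 0.31 was 0.066 without untreated replicate 2, the animal in which these genes were lowest, and 0.49 without untreated replicate 1.

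Among 34 genes of mature colonocytes, 7 lay above (20.6%) and 2 below (5.88%). Over all genes, 14.9% lay above and 14.5% below, the shares to set beside each list of this paragraph. The sodium pump subunit Atp1b1 (0.56 ± 0.14), the proton pump Atp12a (0.63 ± 0.17) and the sulphate carrier Slc26a2 (1.18 ± 0.33) had the smallest p. Slc26a3 (5.50 and 5.03 against 5.63 and 4.40) and the water channel Aqp8 (5.37 and 5.12 against 5.36 and 4.81) overlapped, as did Car1 (2.39 and 3.43 against 3.96 and 2.93). Goblet cell genes gave 2 above and 3 below of 22, enteroendocrine genes 2 and 5 of 17, stem cell and Wnt target genes 3 and 3 of 24, and antimicrobial genes 2 and 2 of 19. In the repair epithelium list, 7 of 21 lay above and 2 below, with Ly6a (Sca-1), a surface marker of regenerating crypts, at 4.09 and 4.17 in the untreated and 4.69 and 4.79 in the 5-ASA animals and Anxa1 (annexin A1) at -1.54 and -2.14 in the untreated and -0.82 and -0.91 in the 5-ASA animals.

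Over all genes, 14.9% lay above and 14.5% below, the shares to set beside each list of this paragraph. Of 25 macrophage and dendritic cell genes, 11 lay above (44%) and 0 below, with a median of 0.13. The mannose receptor Mrc1 lay at 0.92 and -0.80 in the untreated and 1.65 and 1.90 in the 5-ASA animals, the endotoxin coreceptor Cd14 at 3.06 and 2.72 in the untreated and 3.46 and 3.70 in the 5-ASA animals and the lysosomal protein Cd68 at 0.41 and 0.44 in the untreated and 0.63 and 0.86 in the 5-ASA animals, whereas the growth factor receptor Csf1r overlapped (2.31 and 1.75 against 2.44 and 1.32). Of 34 fibroblast and matrix genes, 13 lay above (38.2%) and 1 below, led by the receptor Pdgfra (1.1 ± 0.34), the collagen Col6a3 (0.88 ± 0.31) and the collagen crosslinker Lox (0.54 ± 0.17), with Col1a1 overlapping (-2.10 and -1.78 against -2.23 and -1.52). Neutrophil genes gave 2 of 18 above and 6 below; S100a9 lay at 1.51 and 1.64 in the untreated and 0.80 and 0.94 in the 5-ASA animals. T and NK cell genes gave 3 above and 2 below of 22, endothelial genes 1 and 1 of 15, mast cell and eosinophil genes 4 and 0 of 11, enteric neuron and glia genes 2 and 2 of 14, and red blood cell genes 0 and 0 of 5.

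Cell cycle genes were low in treated replicate 1 and not in treated replicate 2. Relative to each gene's mean over the 4 animals, the median of the list stood at 0.074 and 0.30 in the untreated and -0.51 and 0.14 in the 5-ASA animals. Of 35 measured genes, 31 had a negative difference of the group means, 11 had both treated animals below both untreated (31.4% against 14.5%) and 0 both above. Mcm6, a subunit of the replicative helicase, lay at -1.49 and -1.84 in the untreated and -2.54 and -2.24 in the 5-ASA animals, Rrm1, of ribonucleotide reductase, at -1.31 and -1.16 in the untreated and -2.10 and -1.60 in the 5-ASA animals and Cdc20, which activates the anaphase-promoting complex, at -1.43 and 0.10 in the untreated and -2.63 and -1.61 in the 5-ASA animals. The proliferation marker Mki67, chosen after its values were seen, overlapped (0.0061 and -0.018 against -1.35 and 0.11). The list's median of -0.43 became 0.032 without treated replicate 1 and -0.78 without treated replicate 2.

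The lists of other processes gave, above and below, 6 and 5 of 29 for DNA damage and p53, 8 and 4 of 25 for apoptosis, 10 and 5 of 40 for oxidative phosphorylation, 6 and 2 of 24 for glycolysis and hypoxia, 3 and 6 of 24 for cholesterol and lipid synthesis, and 5 and 5 of 24 for ER stress and heat shock. They gave 9 and 3 of 18 for the circadian clock, 8 and 1 of 23 for immediate early genes, 8 and 2 of 24 for TGF-beta and BMP signalling, and 5 and 2 of 20 for antigen presentation. Over all genes, 14.9% lay above and 14.5% below. The circadian share of 50% above stood on 18 genes, with a median difference of 0.087. Of these genes, 0 lay higher at an unadjusted p under 0.05, against 2.46% of all genes. Hif1a, the hypoxia-inducible factor, lay at -0.27 and -1.72 in the untreated and 0.50 and 0.61 in the 5-ASA animals. The small heat shock protein Hspb1 lay at 1.91 and 1.58 in the untreated and -0.08 and 0.61 in the 5-ASA animals, with 1 of 2 probes opposed, and the immediate early factor Jun at 1.5 and 1.23 in the untreated and 2.04 and 2.05 in the 5-ASA animals.

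Single members of these lists are given by their levels, the untreated pair against the treated pair. The recombination protein Brca2 (-1.77 and -1.47 against -2.49 and -2.25) and the tumour suppressor Trp53 (1.17 and 1.32 against 2.84 and 1.74) had the smallest p of the DNA damage list, with 1 of 2 probes higher for the latter. The caspase that starts death receptor signalling, Casp8 (0.74 and -0.27 against 0.99 and 1.13) and the MAP kinase phosphatase Dusp1 (-1.93 and -2.57 against -1.31 and -1.37) follow from their lists in the same way. So do the BMP antagonist Grem1 (3.27 and 2.18 against 1.40 and 1.44), the peptide transporter of antigen processing Tap2 (0.38 and 0.23 against 0.53 and 0.98), the cytotoxic granule protease Gzma (-5.47 and -4.99 against -4.41 and -4.32) and the mast cell carboxypeptidase Cpa3 (0.54 and 2.0 against 2.86 and 2.15). The hyaluronan receptor Cd44 (-0.45 and -1.16 against 0.21 and -0.33), a Wnt target, and the epithelial oxidase maturation factor Duoxa2 (0.86 and 1.31 against 2.12 and 1.93) had the smallest p in the stem cell and antimicrobial lists. For Cd44, 2 of its 3 probes were higher in treated mucosa. None of the genes of this paragraph passed the adjusted threshold.

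**Figure D4:**
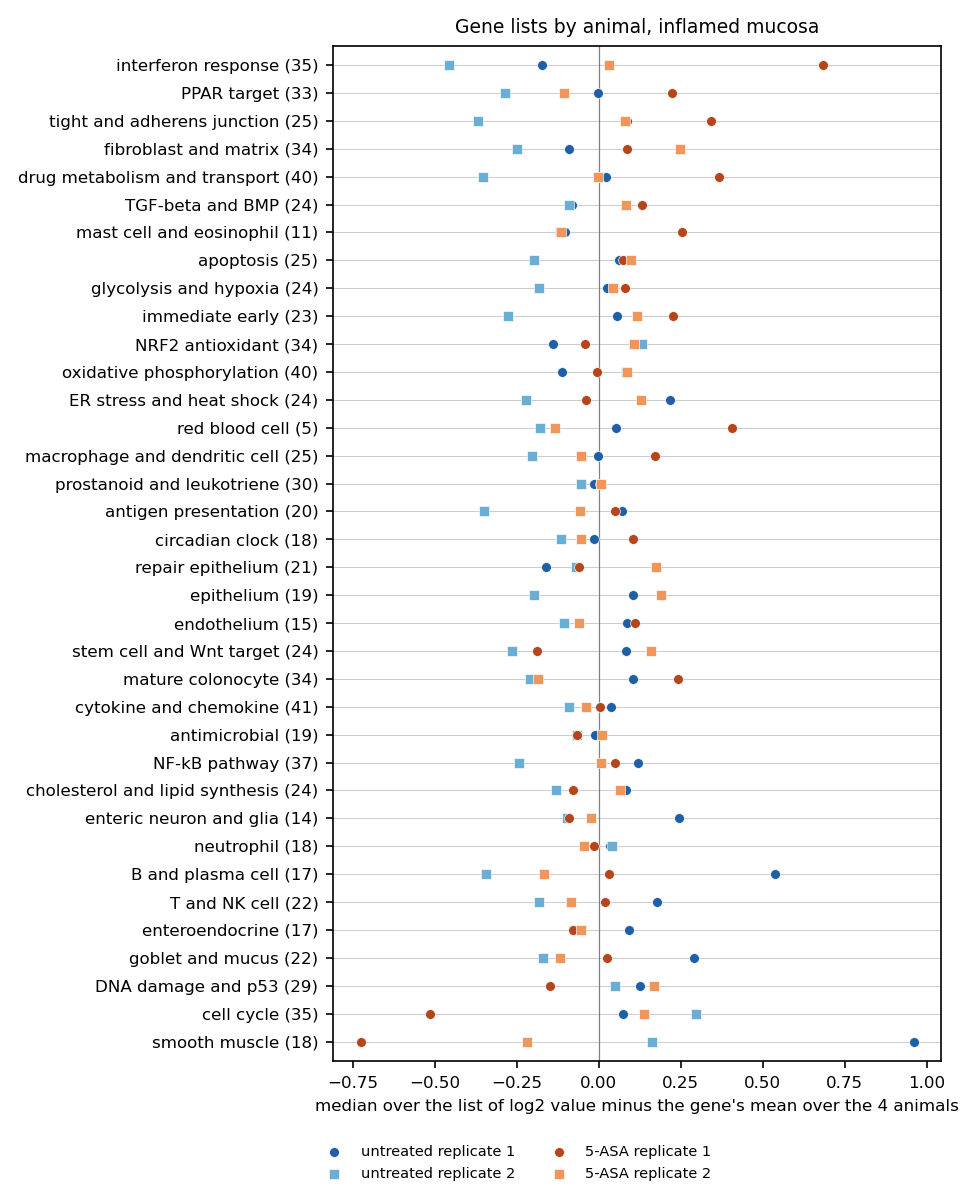
For each of 36 gene lists (number measured in brackets), the median over its genes of the animal's log2 value minus the gene's mean over the 4 inflamed animals (x axis), 1 point per animal, ordered by the median difference. Interferon response has treated replicate 1 far to the right, smooth muscle spreads from untreated replicate 1 on the right to treated replicate 1 on the left, and in B and plasma cell genes untreated replicate 1 stands alone.

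The same drug comparison in polypoid tissue, with other animals as its controls, served to ask whether the values were particular to inflamed mucosa. The difference between the 2 drug effects was tested as an interaction in the same limma fit, and 0 of 21301 genes (0%) passed. The smallest adjusted p was 0.797, and 1273 genes (5.98%) had an unadjusted p under 0.05. Xdh had the smallest p: it differed by 2.09 ± 0.31 in inflamed mucosa and by -1.82 ± 0.31 in polypoid tissue, where its levels were 1.62 and 1.27 in untreated and 0.0052 and -0.75 in treated animals. Cdh1 differed by 1.40 ± 0.17 and -0.52 ± 0.17. Pex11a, a protein of peroxisome division, Flot1, a membrane raft protein, and Cnot8, a deadenylase subunit, came next. Their inflamed differences were 0.39, 0.54 and 0.61, and their polypoid differences -0.92, -0.73 and -0.63. For Cnot8, 1 of its 2 probes was higher in treated inflamed mucosa. In the other direction, Ttf2 and Lockd lay lower in treated inflamed mucosa (-0.73 and -0.94) and higher in treated polyps (0.80 and 0.45), while Prom2 and Srrm4 differed mainly in polyps (1.56 and 1.61, against 0.022 and -0.29 in inflamed mucosa). Prom2 was well above background on 2 of 4 untreated and 0 of 3 treated arrays of inflamed mucosa.

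The interferon genes had a median difference of 0.75 in inflamed mucosa and of -0.35 in polypoid tissue, where 4 of 35 lay above and 8 below without overlap (21.3% and 19.2% of all genes). Of the 35 members, 11 had an interaction p under 0.05 unadjusted, each with the larger value in inflamed mucosa, and none passed the adjusted threshold. Over all 21301 genes, 642 had such a p with the larger value in inflamed mucosa and 631 with the smaller. Ifit1 differed by 2.10 ± 0.64 and -0.73 ± 0.64 in the 2 tissues, and Oasl1 by 0.91 ± 0.23 and -0.79 ± 0.23. Drug metabolism genes had medians of 0.26 and -0.49, PPAR targets of 0.35 and -0.17, smooth muscle genes of -0.81 and -0.16, and cell cycle genes of -0.43 and 0.23. Low polypoid values were not particular to these lists. Epithelial markers had medians of 0.064 and -0.45, mature colonocyte genes of 0.050 and -0.59, and oxidative phosphorylation genes of 0.14 and -0.35. The part of epithelium in the tissue differences was not tested.

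**Figure D5:**
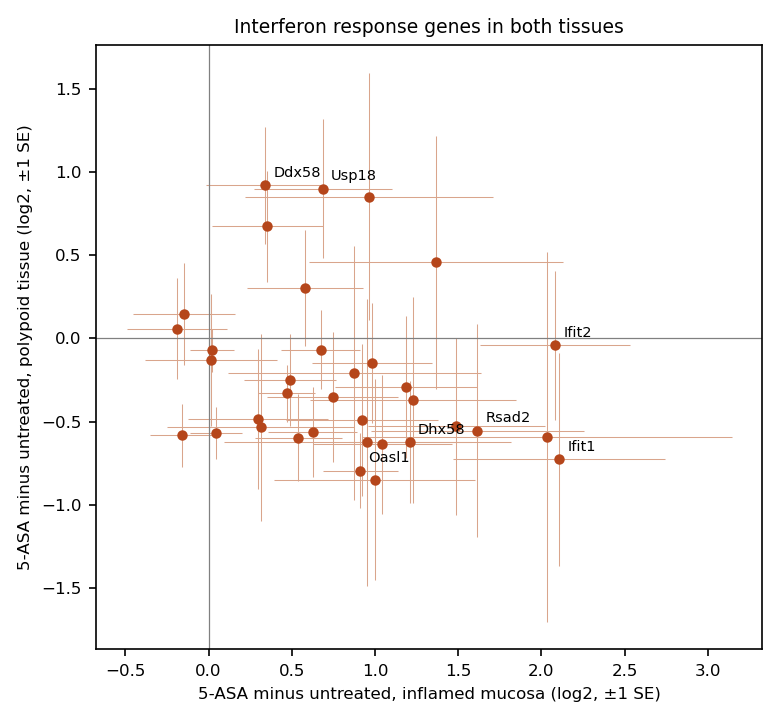
Log2 difference of 5-ASA minus untreated in inflamed mucosa (x axis) and in polypoid tissue (y axis) for the 35 interferon response genes, 1 point per gene with bars of ±1 SE from limma. Of the 35 genes, 32 lie right of 0 and 27 below 0; Ifit1 and Rsad2 are far right and below, Usp18 and Ddx58 above.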

How the data were processed

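Dual-colour Agilent arrays measured amplified RNA of laser-captured colon tissue from 8 mice against amplified reference RNA, with dyes swapped for 7 of the animals. Per the file headers, the deposited scanner files hold spot intensity and a log10 ratio of Cy5 over Cy3 from Agilent Feature Extraction 9.1.1.1. The deposited value table holds log2 ratios, already turned to sample over reference as compared with the scanner values; how it was normalised is not given in the sources used here.

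Intensities were background-corrected (normexp, offset 50), normalised by loess within each array with control and outlier spots at weight 0, and turned to log2 of sample over reference. A fit of animal and dye gave 1 value per animal. Treated inflamed replicate 2 had 1 array, so its dye effect was taken from the other animals. A probe was kept if all arrays of any 1 of the 4 groups had it well above background in the sample's dye, and a gene was read from its brightest probe. Of 41174 probes, 22864 were named through the RefSeq table by accession, 10230 by name and 8080 keep the array's name. Group means of all 8 animals were fitted with a shared spread in limma 3.58.1 (R 4.3.3; statmod 1.5.0 for the random block), with Benjamini-Hochberg adjustment over all genes and a threshold of 0.05. P-values rest on the spread between the 2 animals of a group, pooled over the 4 groups, the polypoid ones included. Limma also draws each gene's spread towards a value common to all genes. The scripts were tested on simulated data.

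Genes were named as the 15 higher and 15 lower genes past the threshold or, as none passed, with the smallest p among genes whose groups did not overlap, the 3 members of each list with the smallest p, any member of the prostanoid, NF-kB, cytokine, PPAR, NRF2 and drug metabolism lists, and 5 genes in each direction of the tissue difference. The members and lists were chosen with earlier results of these data known. A few genes that the rule names are not reported here. Alternatives covered background correction, normalisation, filters, probes, dye, batch, pairing and each animal left out.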

Additional observations from a re-analysis of the deposited data

How the results depend on the processing

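No gene passed the adjusted threshold under any of the alternatives tried except 1. With all 15 arrays fitted and the animal as a random block, 2 genes passed in inflamed mucosa and 2 in the difference between tissues, Xdh and Cdh1 in both. That fit takes arrays rather than animals as its observations, and its 2 genes do not add animals to the comparison. Leaving out any 1 animal left 1 animal in its group, so no count of genes is given for those fits. With the replicate block, 0 genes passed in inflamed mucosa, with 1424 at an unadjusted p under 0.05, and 0 in the difference between tissues; with only the inflamed animals and the replicate block, 0 passed, with 1349 at that level. The titles' replicate numbers do not say that same-numbered animals were paired, and with 2 numbers the correlation of same-numbered deviations was 0.26. Scan session as a block left 1 residual degree of freedom and 0 genes passed. Of the genes whose inflamed difference is given, 2 changed sign under an alternative. Cdh17 went to -0.14 with the processed signals, and Prom2, near 0 at 0.022, ran from -0.053 to 0.088 with 1 animal left out; the cause was not tested. The interferon median lay between 0.37 and 1.14 over its alternatives and that of smooth muscle between -1.56 and -0.40. The number of animals, 2 a group, limits the precision, and treated replicate 2 had only 1 array.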
